A study of Mus musculus with 3 samples.

Results

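The cytoplasmic ribosomal protein genes of the mouse were followed in RNA bound to macrophage chromatin. Members were the genes annotated as protein-coding whose symbol starts with Rpl or Rps and names a protein of the large or the small subunit, which gave 83 of the 55536 annotated genes, 51 for the large subunit and 32 for the small. They lie on 19 chromosomes, 4 of them on X. No measured value entered this rule, which was set with earlier results of these data known.

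The data are ribosomal RNA-depleted total RNA-seq libraries from bone marrow-derived macrophages (primary cells grown from marrow) of strain C57BL/6J. All 3 libraries, numbered as biological replicates of 1 donor identifier, belong to 1 group: cells given lipid A, the lipopolysaccharide moiety sensed by TLR4, at 100 ng/ml in 2 rounds. The first round lasted 12 h and was followed by 12 h without the agent, the second lasted 30 min, and the chromatin fraction was then taken. Sex and age were not collected, and no genetic change was named. With no unstimulated or cytoplasmic samples among the 3, levels were set against a fixed floor and against other genes of the same libraries. Every library comes from cells exposed to the agent, so no value below speaks of a response to it.

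A ribosome is built from ribosomal RNA and about equal amounts of each ribosomal protein, which are made in the cytoplasm and carried back to the nucleolus for assembly. Their genes are short, have several introns that often carry small nucleolar RNAs (snoRNAs, guides of ribosomal RNA modification), and have left many processed pseudogenes, intron-less copies made from their mRNAs. Most of their mRNAs begin with a 5′ terminal oligopyrimidine tract (TOP), a cytosine followed by a run of C and T, through which the kinase mTOR controls their translation. RNA on chromatin holds transcripts still being made or spliced, so splicing can be seen there before it is complete.

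The libraries held 12532722, 18395358 and 18237730 expected counts (read numbers shared out among genes by a model) in replicates 1, 2 and 3, and were made from 1 µg, 250 ng and 500 ng of RNA. Rows that name no gene of the annotation took between 0.401% and 1.04% of the counts. Protein-coding genes held between 297742 and 333320 TPM (a transcript level corrected for transcript length and library size) in each library, so most of the TPM lay on other RNA. By counts they held the larger part, with 68.5%, 61.8% and 61.9% in replicates 1, 2 and 3. All 10 macrophage markers had a mean over 1 TPM, with a median of 129 TPM. Of 26 markers of other blood and stromal cells 16 had a count and 3 had a mean over 1 TPM, the highest being Cd4 with 7.33 TPM. Their summed level was 10.9, 11.3 and 13.8 TPM in replicates 1, 2 and 3. Since nothing states that the replicates came from separate animals, p-values below measure the spread between these 3 samples, which may be technical.

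In most members that were deep enough to judge, the larger part of the counts fell on transcripts annotated as retaining an intron and not on the transcripts that encode the protein. The exon borders below show what separates both forms in the 6 members with the most counts on a leading intron-retaining transcript that holds a whole intron of the coding transcript bordered by coding sequence. Each pair was read from the GENCODE M21 transcripts (build mm10, transcribed strand): the joined form has the last 20 bases of the exon followed by the first 20 of the next exon, and the retained form has the same 20 exon bases followed by the first 20 of the intron in capitals. In each, the intron opens with GT and ends with AG, and the border lies within the coding sequence.
Rpl3 joined: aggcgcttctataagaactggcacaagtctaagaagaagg
Rpl3 retained: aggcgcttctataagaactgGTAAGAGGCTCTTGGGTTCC
Rps24 joined: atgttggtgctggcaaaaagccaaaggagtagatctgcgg
Rps24 retained: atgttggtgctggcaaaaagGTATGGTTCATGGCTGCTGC
Rps19 joined: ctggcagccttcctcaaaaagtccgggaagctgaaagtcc
Rps19 retained: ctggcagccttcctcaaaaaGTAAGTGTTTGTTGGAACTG
Rpl30 joined: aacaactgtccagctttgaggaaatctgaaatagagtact
Rpl30 retained: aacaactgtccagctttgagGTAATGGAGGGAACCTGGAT
Rpl9 joined: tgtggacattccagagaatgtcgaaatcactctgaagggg
Rpl9 retained: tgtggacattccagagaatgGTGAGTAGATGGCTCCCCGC
Rpl10 joined: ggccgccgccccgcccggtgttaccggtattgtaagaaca
Rpl10 retained: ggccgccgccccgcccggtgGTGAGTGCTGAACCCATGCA

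The introns shown differ in place and size. In Rpl3 it is intron 3 of 9 (chr15:80081032-80081614, minus strand, 583 bases), and in Rps24 the last of 4 (chr14:24493494-24495774, plus strand, 2281 bases). In Rps19 it is intron 2 of 4 (chr7:24885207-24885451, plus strand, 245 bases), and in Rpl30 intron 2 of 3 (chr15:34441363-34442634, minus strand, 1272 bases). In Rpl9 it is the 91-base intron 2 of 7 (chr5:65390855-65390945, minus strand), and in Rpl10 the 635-base intron 1 of 5 (chrX:74271025-74271659, plus strand). The transcripts that hold them are partial models, so a count on one says that reads reached that intron or the exons beside it, not that the whole RNA was read.

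Nearly every member was present on chromatin, at levels over a range from 2.54 to 127 TPM. Of the 83 members 81 had a count in at least 1 library, and 80 of these lay above 1 TPM (limma on log2(TPM + 0.1), one-sided, Benjamini-Hochberg adjusted p from 5.28e-07 to 0.00922). The same call was made for 50.5% of all 24180 genes tested and for 61.1% of the 15120 protein-coding ones. All 32 small-subunit members and 48 of 51 large-subunit members passed. The exceptions were Rpl10l and Rpl3l, which had 0 counts in every library, and Rpl39l, with 0, 0 and 0.12 TPM. These are paralogs known from testis or striated muscle. Over 5 TPM the call held for 65 members, 38 large and 27 small, against 30.5% of all genes and 40.6% of protein-coding genes, and over 50 TPM for 2 members against 4.04% and 5.5%.

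The members lay above the middle of the protein-coding genes, without reaching the top. Their median was 12.6, 16.9 and 16.3 TPM in replicates 1, 2 and 3, against 3.74, 4.42 and 4.06 TPM for protein-coding genes tested, which is 3.36, 3.83 and 4.02 times as high. The median over the libraries, 15.1 TPM, had the percentile 73.2 among protein-coding genes. Means over 10 TPM were found in 58 of the 83 members, against 34.6% of protein-coding genes, 22 lay between 1 and 10 TPM and 3 below 1 TPM. The members' summed level was 1429, 1895 and 1737 TPM, or 0.0926%, 0.114% and 0.0945% of the counts. In a bulk sample, fewer cells of a kind and less RNA per cell cannot be told apart.

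**Figure D1:**
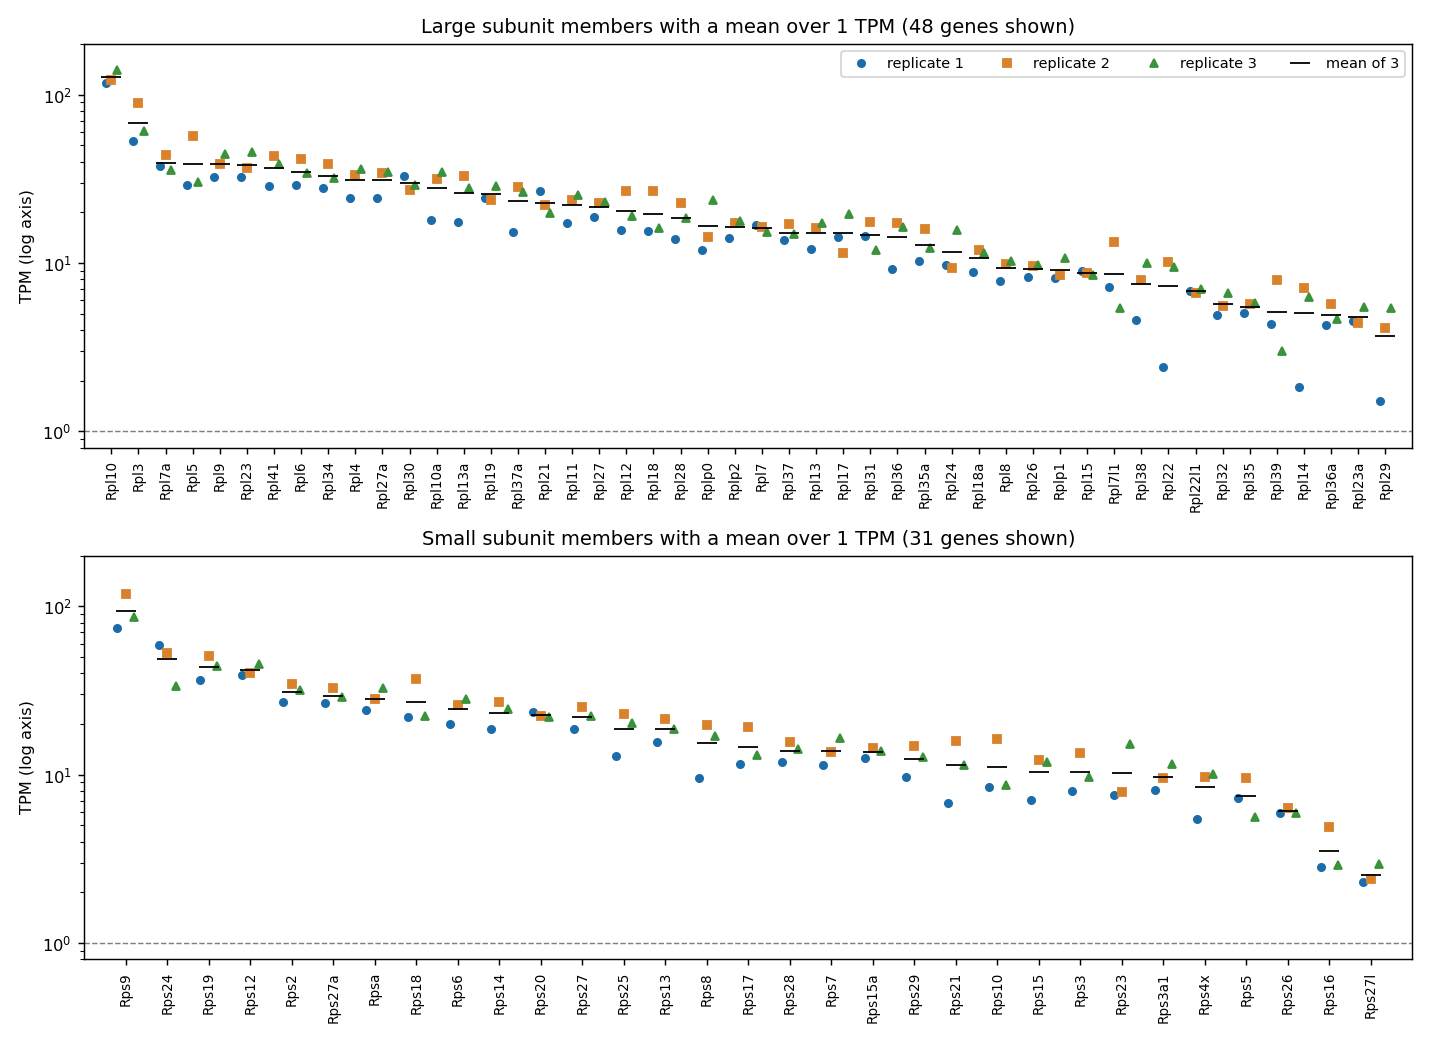
Level in TPM (log axis) of members with a mean over 1 TPM, 48 of the large subunit above and 31 of the small subunit below, where 1 further member is not shown, ordered by mean; points are the 3 libraries, the bar is their mean and the dashed line marks 1 TPM. Rpl10, Rps9 and Rpl3 stand at the high end with means of 127, 93.2 and 67.8 TPM, and for Rpl22, Rpl14 and Rpl29 the point of replicate 1 lies far below the other two.

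In the large subunit Rpl10, which joins the subunit late in its assembly and lies near the site of peptide bond formation, was highest. Its level was 117.53, 122.06 and 140.71 TPM in replicates 1, 2 and 3, and it was the highest member in every library (mean 127 ± 12.3 TPM, SD, n = 3). On the log2(TPM + 0.1) scale it exceeded the floor of 1 TPM by 6.85 ± 0.10 (SE, limma adjusted p = 5.28e-07). Rpl3, a core protein that reaches toward the peptidyl transferase centre, had 53.05, 89.54 and 60.77 TPM (67.8 ± 19.2 TPM). Rpl7a followed with 37.67, 43.84 and 35.90 TPM, and Rpl9 with 32.25, 38.92 and 44.20 TPM. The ranges of Rpl7a, Rpl9 and Rpl5 overlapped, so their order is not resolved. The large-subunit members not otherwise described ranged between Rpl23, with 32.53, 36.56 and 45.91 TPM, and Rpl23a, with 4.50, 4.40 and 5.48 TPM. Among them Rpl41, which encodes the shortest of these proteins, had 28.50, 43.05 and 38.98 TPM, and Rpl4, whose extension reaches into the exit tunnel, 24.36, 33.16 and 36.34 TPM.

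Rpl5 and Rpl11 carry the smallest ribosomal RNA of the large subunit into it and, when free, bind the p53 regulator Mdm2. Rpl5 had 28.92, 56.53 and 30.07 TPM and Rpl11 17.26, 23.79 and 25.27 TPM, with Rpl5 the higher of the pair in each library. Rpl13a, which in human monocytic cells also acts in a complex that holds back translation of inflammatory mRNAs, had 17.60, 32.91 and 27.72 TPM. The stalk, which recruits translation factors, is formed by Rplp0 and dimers of Rplp1 and Rplp2. Rplp0 had 12.01, 14.31 and 23.51 TPM, Rplp1 8.16, 8.49 and 10.77 TPM, and Rplp2 14.00, 17.37 and 17.75 TPM. Rplp1 was the lowest of the stalk genes in each library, while Rplp0 and Rplp2 changed places between libraries.

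In the small subunit Rps9, one of the proteins that line the channel through which mRNA enters, stood first with 74.83, 118.13 and 86.76 TPM (93.2 ± 22.4 TPM), 6.38 ± 0.15 above the floor on the log2 scale (SE, limma adjusted p = 8.99e-07). It was below Rpl10 and above Rpl3 in every library, although the ranges of neighbours in that order overlap. Rps24 had 58.62, 52.98 and 33.44 TPM, and it was the only one among the 5 highest members of each subunit with its top value in replicate 1. Rps19, a gene mutated in the human inherited anaemia Diamond-Blackfan, had 36.75, 50.49 and 44.17 TPM. Rps12 had 39.30, 40.29 and 45.57 TPM and Rps2, another protein of the entry channel, 27.10, 34.75 and 31.65 TPM. Rps27a, which encodes ubiquitin fused to a small-subunit protein, had 26.75, 32.69 and 28.88 TPM, and Rpsa, also described as a laminin receptor, 24.33, 28.01 and 32.59 TPM.

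Rps6, the small-subunit protein phosphorylated by the S6 kinases, had 19.95, 25.86 and 28.00 TPM. Rps3, which lines the entry channel and has also been described as a partner of the NF-κB subunit p65, had 8.01, 13.41 and 9.74 TPM. The lowest small-subunit members were Rps27l with 2.30, 2.39 and 2.94 TPM and Rps16 with 2.83, 4.88 and 2.90 TPM. Both stayed above 1 TPM in every library, with limma adjusted p of 0.00188 and 0.000961.

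The subunits did not separate in level. The median of the large-subunit members was 13.9, 16.9 and 16.3 TPM, and that of the small-subunit members 11.7, 17.7 and 15.8 TPM. On the log2 scale the large minus the small median was 0.24, −0.06 and 0.05, a mean of 0.08 ± 0.15 (SD, n = 3), with both signs among the libraries.

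Between libraries most members moved little, and mostly the same way. Of the 80 members with a mean over 1 TPM, 72 had a ratio of highest to lowest library under 2, and the median ratio was 1.44. The median coefficient of variation was 18.5% for the members and 17.5% for protein-coding genes. Replicate 1 was the lowest library for 62 of the 80, replicate 3 for 11 and replicate 2 for 7. The median of protein-coding genes was lowest in replicate 1 too. That library was the shallowest and had the largest RNA input, and the part of either in the difference was not tested.

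The members that varied most were all low in replicate 1. Rpl22 had 2.42, 10.13 and 9.45 TPM, a ratio of 4.19. Rpl14 had 1.82, 7.09 and 6.24 TPM, a ratio of 3.90, and Rpl29 had 1.52, 4.10 and 5.39 TPM, a ratio of 3.55. They passed 1 TPM with limma adjusted p of 0.00271, 0.0053 and 0.00922, but without replicate 2 Rpl29 no longer did (adjusted p = 0.0544). When genes with no TPM were also tested, none of these genes passed (limma adjusted p = 0.108 for Rpl22, 0.140 for Rpl14 and 0.169 for Rpl29).

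Other genes of protein synthesis gave a scale for these levels. The ribosomal proteins that the symbol rule leaves out numbered 4 in the list used. They include Fau, which encodes a fusion with a ubiquitin-like part, the scaffold Rack1, and Rpl36al. All 4 lay above 1 TPM, with a median of 15.7 TPM, and Rack1 was highest with 22.87, 43.90 and 44.88 TPM. Of 15 translation factors and related genes with TOP mRNAs 15 passed, with a median of 21.1 TPM. Eef1a1, which brings aminoacyl-tRNA to the ribosome, had 328.59, 249.43 and 386.95 TPM, above Rpl10 in every library. Of 20 ribosome assembly genes 20 passed, with a median of 7.87 TPM, led by nucleolin (Ncl) with 40.43, 40.80 and 46.11 TPM.

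Of 10 genes of the mTOR and S6 kinase axis 9 passed, with a median of 23.2 TPM. Rptor, the mTOR complex subunit that picks substrates, had 40.14, 51.58 and 49.80 TPM. Larp1, which binds TOP mRNAs, had 36.04, 41.90 and 30.33 TPM. Eif4ebp1, an inhibitor of the cap-binding factor, had 1.14, 0.87 and 0.96 TPM and did not pass (limma adjusted p = 0.913). Its mean was 18.9 TPM in the second transcript table, another quantification of the same libraries, so its place near the floor depends on the table.

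The mitochondrial ribosomal proteins, the nuclear-encoded counterparts for the organelle's own ribosome, were lower. Of 78 such genes 57 passed 1 TPM, and their median was 3.02, 4.25 and 3.16 TPM in replicates 1, 2 and 3, below that of the cytoplasmic members in each library. Over the libraries the medians were 15.1 TPM for the cytoplasmic and 3.59 TPM for the mitochondrial genes. Of the 13 mRNAs encoded by mitochondrial DNA, which are not made on nuclear chromatin, 12 were tested and 8 passed. Their summed level was 688, 389 and 802 TPM, so RNA assigned to mitochondrial genes was present in each library. Its part in the members' levels was not tested.

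The members' counts fell less on protein-coding transcripts than those of protein-coding genes at large. The 60 members that averaged 50 or more expected counts had a median of 34.3% of their counts on protein-coding transcripts, against 79.1% for 8919 protein-coding genes of the same depth. Retained-intron transcripts held a median of 56.7% in the members and 10% in the protein-coding genes. The coding share was 32.3%, 30.8% and 38.1% in the members in replicates 1, 2 and 3, against 77.7%, 78.5% and 81.3% in the protein-coding genes. The members' medians all lay below those of the protein-coding genes, with a gap larger than the range of either over the libraries.

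Retained-intron models were annotated for 51 of the 60 members and for 5852 of the 8919 protein-coding genes (65.6%), so more often for the members. Among genes with such a model the difference remained: the coding share was 34.3% in 51 members and 64.5% in 5852 protein-coding genes, and the retained-intron share 64.2% and 28.0%. The members were also shorter, with a median gene span of 3368 bases against 22155 for protein-coding genes tested, and the part of length in the shares was not tested. Unspliced reads can only be assigned where an annotated transcript holds the intron, so these shares depend on which introns the annotation models as retained.

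**Figure D2:**
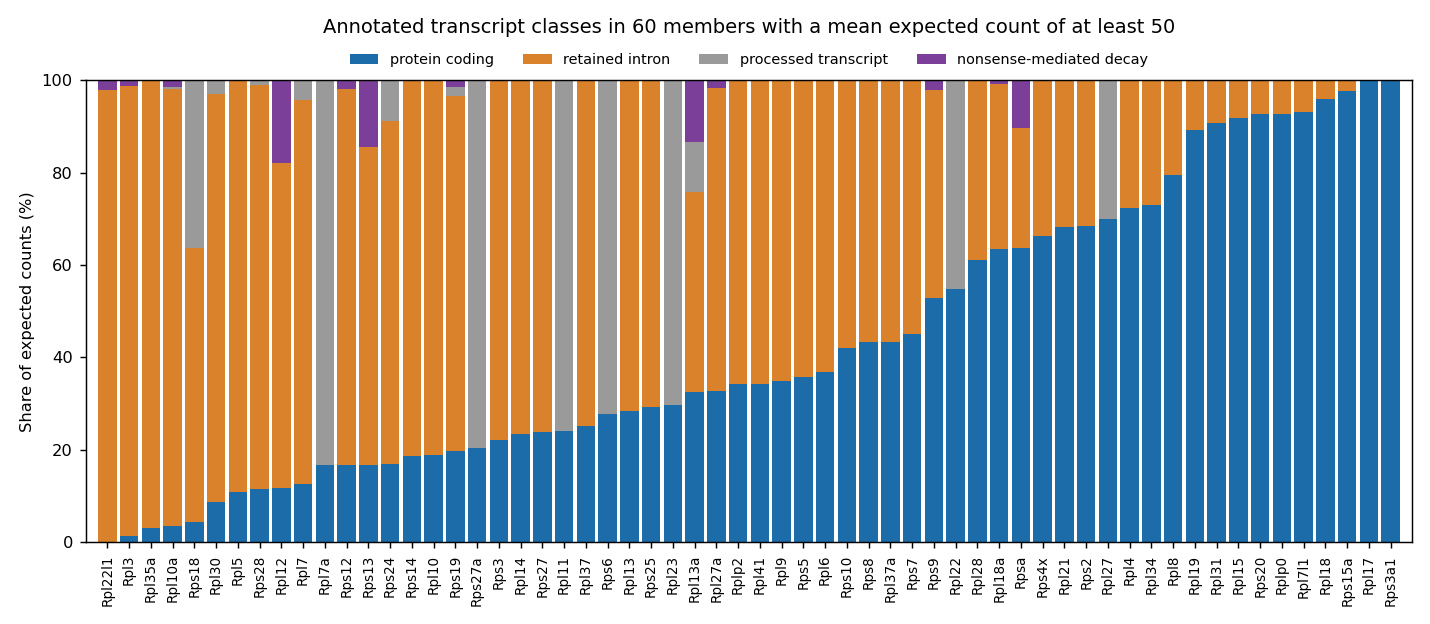
Share of expected counts on each annotated transcript class for the 60 members that averaged 50 or more expected counts, ordered by the protein-coding share (bars add the classes up to 100%; counts of the 3 libraries are pooled). Protein-coding transcripts held the largest part in 22 members, retained-intron transcripts in 33 and processed transcripts in 5, which have no annotated retained-intron model.

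The coding share was under 50% in 38 of 60 members (63.3%), against 25.3% of protein-coding genes. It was under 10% in 6 members and over 90% in 9. In Rpl3 the coding transcripts held 2.16%, 0.651% and 1.76% of the counts in replicates 1, 2 and 3, while retained-intron transcripts held 97.3%, 98.9% and 94.9%. The transcript behind the Rpl3 intron shown above, Rpl3-204, alone held 66.6% of the counts, and the full coding transcript Rpl3-201 0.348%. In human cells RPL3 and RPL12 are known to act on the splicing of their own pre-mRNAs.

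Rpl22l1, the paralog of Rpl22, had no count on a coding transcript in any library, and its retained-intron share was 100%, 97.1% and 97.4%. Rpl35a, a large-subunit protein also mutated in Diamond-Blackfan anaemia, had coding shares of 2.81%, 3.38% and 3.23%. Rpl30, whose yeast counterpart binds its own pre-mRNA, had 10.8%, 7.56% and 8.96%, and its leading transcript Rpl30-203 held 82.7% of the counts. Rps24 had 19.5%, 14.1% and 18.6%, and Rps19 15.1%, 21.4% and 21%. Rps18 and Rpl10a complete the group under 10%, with pooled shares of 4.32% and 3.44%. By library, Rps18 had 0.768%, 0% and 14.3%, so above 10% in replicate 3, and Rpl10a 3.01%, 1.21% and 5.81%. In all of these genes the coding share was under 50% in every library.

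The most abundant members were not alike in this. Rpl10 had coding shares of 16.9%, 16.4% and 22.3%, whereas Rps9 had 52.2%, 52.3% and 54.5%. Rpl5 had 12.7%, 6.96% and 16.4%. In the stalk, Rplp0 had 96.8%, 86.9% and 94.4% and Rplp2 23.4%, 30.1% and 48.2%.

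At the other end, Rpl17 and Rps3a1 had 100% of their counts on coding transcripts in every library, and Rps15a 97.6%, 98.5% and 96.6%. Neither Rpl17 nor Rps3a1 has an annotated retained-intron model, so none of their counts could fall in that class. Rps20, Rpl18 and Rpl31, named after their values were seen, had pooled shares of 92.7%, 95.9% and 90.7%, so members at both ends occur in each subunit. In 5 members the largest class was the processed transcript, a non-coding model not called intron-retaining. None of these 5 has an annotated retained-intron model that could have taken counts. These were Rpl7a (83.2% of counts), Rps27a (79.7%), Rpl11 (75.9%), Rps6 (72.3%) and Rpl23 (70.2%), named after their values were seen. Transcripts marked for nonsense-mediated decay, which degrades mRNAs with an early stop codon, were a minor class, with 17.9% in Rpl12, 14.5% in Rps13 and 13.4% in Rpl13a.

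Both subunits showed the pattern. The median coding share was 34.3% in 37 large-subunit members and 29.3% in 23 small-subunit members. Between libraries the share of a member ranged over a median of 6.66 percentage points, and over less than 10 points in 38 of the 60.

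**Figure D3:**
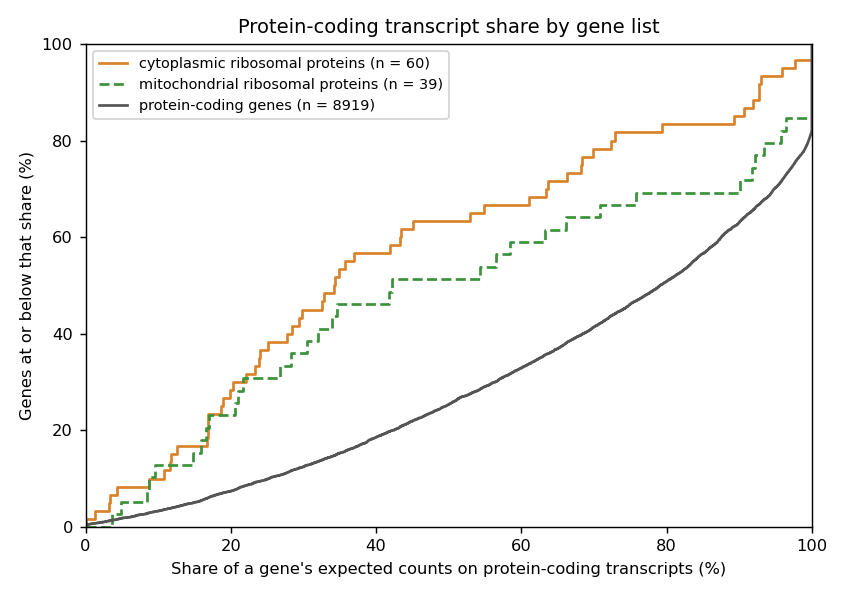
Cumulative distribution of the share of a gene's expected counts on protein-coding transcripts (x axis, %) for 60 cytoplasmic ribosomal protein genes, 39 mitochondrial ribosomal protein genes and 8919 protein-coding genes, all averaging 50 or more expected counts (y axis, % of genes at or below that share). The cytoplasmic members lie to the left, with 63.3% of them under a share of 50%, against 51.3% of mitochondrial ribosomal protein genes and 25.3% of protein-coding genes.

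Other lists lay on both sides of the protein-coding median. The median coding share was 42.1% in 39 mitochondrial ribosomal protein genes and 48.0% in 15 translation factors with TOP mRNAs. It was 84.7% in 19 assembly genes, 93.8% in 9 genes of the mTOR and S6 kinase axis and 97.7% in 10 macrophage markers. Where a retained-intron model is annotated, it was 78.6% in 14 assembly genes, 92.7% in 8 axis genes and 65.1% in 3 macrophage markers. Protein-coding genes with such a model had 64.5%, so the high share of the macrophage markers depends on the annotation. Among genes with a retained-intron model, 31 mitochondrial ribosomal protein genes had a coding share of 34.6% and a retained-intron share of 57.9%, near the 34.3% and 64.2% of the members. No test of the members against these lists was made. When shares were taken from TPM in place of counts the members' median was 34.3% and that of protein-coding genes 55.7%. In the second transcript table, which was derived from the reads directly, the medians were 41.1% and 71.0%.

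Retained-intron transcripts carried counts in 63 members. In 37 of them the leading one contained at least 1 whole intron of the transcript with the longest coding sequence, 1 intron in 24 genes and more in 13. The 60 introns concerned were 76 to 2281 bases long, with a median of 324 bases. All 60 start with GT and end with AG. The first intron of the gene accounted for 11 of them and the last for 12, so most were internal. A snoRNA gene lay inside 16 of the 60, in 13 genes.

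The snoRNAs themselves were poorly measured. Of the 83 members 30 (36.1%) contain a snoRNA gene, 58 snoRNAs in all, against 1.62% of protein-coding genes tested. Of the 58 snoRNAs 17 had a nonzero TPM and the others are listed at 0. Most of those at 0 have an effective length of 0 bases, where no TPM can arise, so their value does not show absence. Members with a snoRNA had a median of 21.6 TPM and the 53 others 13.6 TPM. Their median coding shares were 32.6% (25 genes) and 35.8% (35 genes). Snord15b, within Rps3, is listed at 35038, 29972 and 26206 TPM, but with an effective length of 3.45 bases. At such a length each count gives a very high TPM, so that level cannot be set beside the 10.4 TPM of its host. The number of counts behind it is not reported here.

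The first and second quantification of the same libraries placed most members alike and a few far apart. Of the 80 members with a mean over 1 TPM, 59 were higher in the second transcript table, 10 of them by more than 2-fold, and the median ratio was 1.20, against 1.28 for protein-coding genes. Rps27l had 11.7, 14.6 and 9.32 TPM in the second table, against 2.30, 2.39 and 2.94 TPM in the gene table. Rpl39, a short protein of the exit tunnel, had 26.9, 25.3 and 17.4 TPM against 4.34, 7.90 and 3.00 TPM, and Rpl35a 56.5, 48.3 and 40.3 TPM against 10.3, 16.0 and 12.2 TPM. In all of these genes the second table was higher in each library with no overlap.

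The opposite was seen in Rpl12, a protein at the stalk base, which had 6.12, 14.3 and 9.23 TPM in the second table, against 15.6, 26.8 and 19.1 TPM in the gene table. Rpl9 had 21.6, 23.7 and 27.6 TPM against 32.2, 38.9 and 44.2 TPM, and Rps12 24.6, 25.3 and 30.2 TPM against 39.3, 40.3 and 45.6 TPM. The coding share moved with the table in some of these genes, to 43.9% for Rpl35a and 85.6% for Rpl39 in the second table against 3.20% and 42.5% in the first, the value of Rpl39 resting on a mean of only 21 expected counts there. For Rpl22l1 the coding share was 7.59% in the second table against 0% in the first. For Rpl3 it was 4.32% against 1.29%, so its low coding share did not rest on the table.

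**Figure D4:**
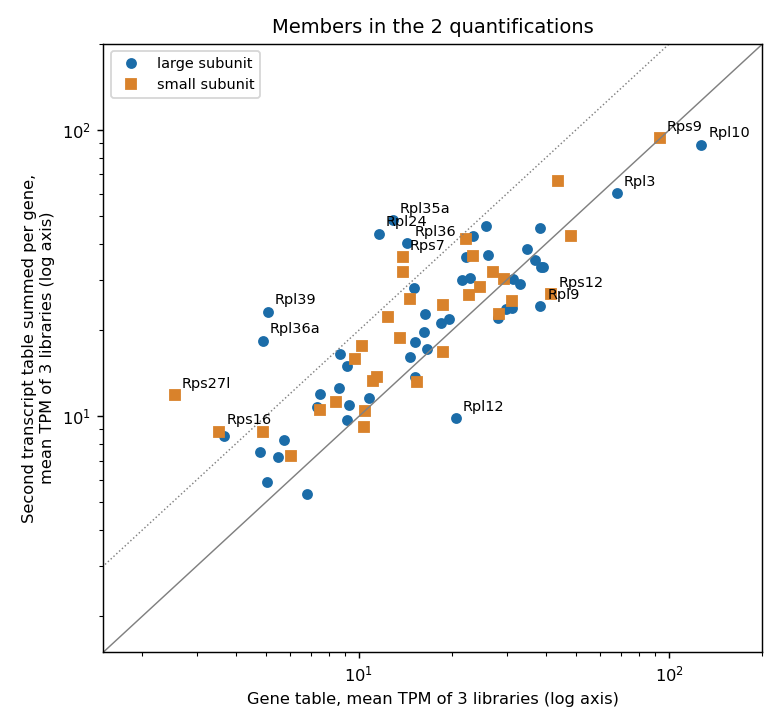
Mean TPM over 3 libraries of each member in the gene table (x axis) and summed per gene in the second transcript table (y axis), both log axes; the solid line marks equality and the dotted line a 2-fold higher second value. Of the 80 members 59 lie above the solid line and 10 above the dotted one, among them Rps27l, Rpl39 and Rpl35a, while Rpl12 lies farthest below.

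Paralogs, second copies of a ribosomal protein gene with their own introns or from a retrotransposed mRNA, were mostly lower than their parent gene. Rpl3l and Rpl10l had 0 counts in each library, where 3 counts would have given 0.255 to 0.354 TPM for Rpl3l and 0.248 to 0.345 TPM for Rpl10l, while Rpl3 and Rpl10 were the highest large-subunit members. Rpl39l had 1 count in replicate 3 and none elsewhere, against 4.34, 7.90 and 3.00 TPM for Rpl39. Rps4l, which the annotation types as a transcribed processed pseudogene and which is no member, had 0.16, 0.24 and 0.37 TPM against 5.48, 9.75 and 10.09 TPM for Rps4x. Rps27l, a p53-responsive gene, was lower than Rps27, which had 18.67, 25.21 and 22.37 TPM, by a log2 difference of −3.07 ± 0.25 (SD, n = 3), which was −1.82 in the second transcript table.

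In the other pairs the levels were closer. Rpl7l1 had 7.21, 13.23 and 5.41 TPM against 16.91, 16.45 and 15.18 TPM for Rpl7, a log2 difference of −1.0 ± 0.61, below 0 in each library. Rpl22l1 had a narrow range, 6.80, 6.62 and 7.04 TPM, against 2.42, 10.13 and 9.45 TPM for Rpl22, so the log2 difference was 1.45, −0.61 and −0.42 and its sign depends on replicate 1; in the second transcript table the mean was −0.94. Rpl36al had 5.81, 5.87 and 6.58 TPM against 4.30, 5.74 and 4.66 TPM for Rpl36a, a log2 difference of 0.32 ± 0.25, which turned to −2.24 in the second transcript table. With 3 libraries no exact test of a pair can reach p below 0.05, and none is given. Reads shared by near-identical copies may have been split between the genes of a pair.

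**Figure D5:**
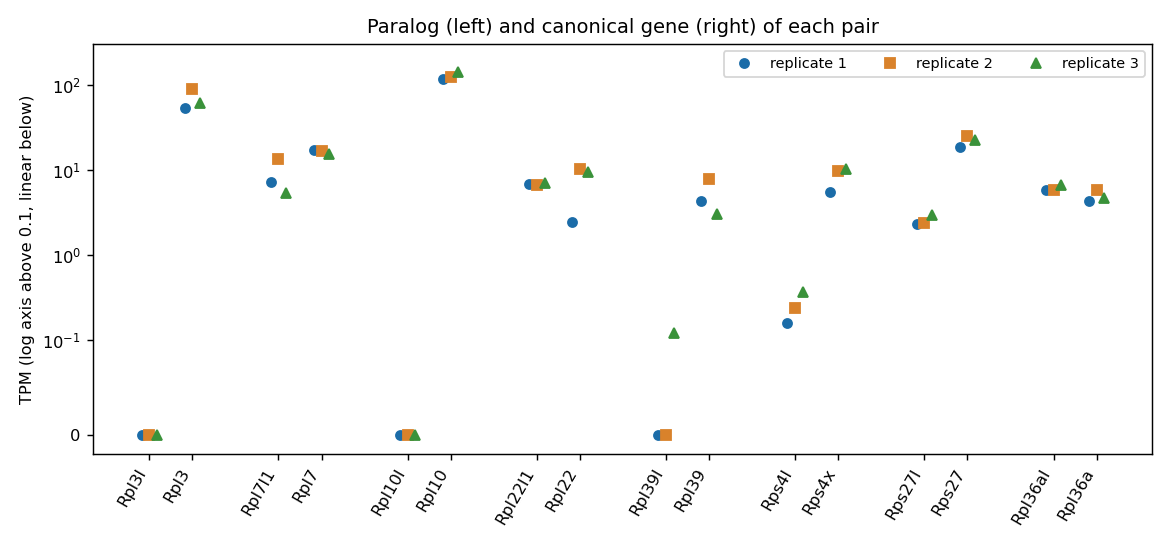
TPM of each paralog (left of a pair) and its parent gene (right) in the 3 libraries, on an axis that is logarithmic above 0.1 TPM and linear below. Rpl3l and Rpl10l lie at 0 in every library, Rpl22l1 lies above Rpl22 in replicate 1 and below it in the others, Rpl36al lies slightly above Rpl36a in each library, and Rps27l lies between 2.30 and 2.94 TPM against 18.67 to 25.21 TPM for Rps27.

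Entries named as pseudogenes of members took a small part of the signal. There are 298 of them, for 60 members, and 105 had counts. Of the summed counts of members and named pseudogenes they held 6.23%, 4.70% and 4.64% in replicates 1, 2 and 3, a mean of 5.19%. In 4 members a pseudogene stood higher than the parent gene, of which 3 are given. Rpl36-ps2 had 32.02, 47.69 and 27.99 TPM against a mean of 14.3 TPM for Rpl36, Rpl26-ps4 18.17, 18.55 and 13.63 TPM against 9.16 TPM for Rpl26, and Rpl23a-ps2 14.64, 5.31 and 8.27 TPM against 4.79 TPM for Rpl23a.

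These pseudogenes lie inside other genes. Rpl36-ps2 lies within Abr, Rpl26-ps4 within Med15 and Rpl23a-ps2 within Rabep1, each of which had a higher mean (129, 143 and 39.6 TPM). Rpl23a-ps2 is on the strand of its host, whereas Rpl36-ps2 and Rpl26-ps4 are on the strand opposite to theirs. Of the 105 pseudogenes with counts 55 (52.4%) lie inside a protein-coding gene, 16 of them on its strand, against 18 of the 193 without counts (9.33%). RNA of the host gene, which on chromatin includes its introns, and RNA of the pseudogene cannot be told apart in these counts, and which strand the counting used is not given in the sources used here. Leaving snoRNA genes aside, 23 of the members themselves overlap a gene on the other strand and 9 one on the same strand, so their levels carry the same doubt.

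The start sites of the members were compared with the TOP rule in RefSeq promoters (GRCm38.p6, 250 bases before to 50 after each start), which matched 63 members with 75 starts. A C at the start followed by at least 4 C or T was found at 13 of 75 starts (17.3%), against 2.23% of 20150 starts of protein-coding genes and 2.51% of all 32851. The match was required at the annotated base exactly, so a start placed some bases away was not counted. For the starts below 25 bases on each side are shown to let the tract be seen, with the tract from the start base on in capitals.
Rps18 (chr17:33955641-33955690, minus strand): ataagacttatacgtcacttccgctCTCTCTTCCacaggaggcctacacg
Rps6 (chr4:86857343-86857392, minus strand): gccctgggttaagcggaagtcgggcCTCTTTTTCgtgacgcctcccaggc
Rplp2 (chr7:141447626-141447675, plus strand): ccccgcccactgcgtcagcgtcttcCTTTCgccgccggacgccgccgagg
Rpl35a (chr16:33056457-33056506, plus strand): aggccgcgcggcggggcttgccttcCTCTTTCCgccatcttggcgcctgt
Rpl15 (chr14:18270962-18271011, minus strand): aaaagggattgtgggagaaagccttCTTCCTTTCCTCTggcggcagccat

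The tracts shown run from 5 bases in Rplp2 to 13 in Rpl15. The 13 members with such a start had a median of 12.8 TPM and the 50 others with a promoter 18.7 TPM, so the tract at the annotated base did not go with a higher level on chromatin. Other motifs were searched on both strands of the same window. CCGGAAG, the core bound by ETS factors, was in 36.0% of the members' promoters, against 11.9% of those of protein-coding genes and 8.86% of all. AAGATGG, the core bound by YY1, was in 16.0%, against 6.30% and 6.34%, and GGGCGG, the GC box, in 60%, against 47.8% and 35.7%. TATAAA was in 9.33%, against 12.1% and 13.6%. A match is only a run of letters in this window.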

How the data were processed

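Ribosomal RNA-depleted total RNA of the chromatin fraction was sequenced in 3 libraries of 1 group. The authors deposited, per library, a gene table and 2 transcript tables on mm10 with annotation M21, per the text deposited beside them. The gene table and first transcript table, derived from transcriptome alignments, hold expected counts and TPM, per the file headers. The deposited second table, derived directly from reads, gives estimated counts beside TPM. Aligner, tool versions and strand setting: not given in the sources used here.

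Levels were tested with limma 3.58.1 in R 4.3.3: an intercept-only fit with an intensity trend to log2(TPM + 0.1), one-sided against 1 TPM, over all 24180 genes with a nonzero TPM, Benjamini-Hochberg adjusted, threshold 0.05. The script was tested on simulated data. Spreads are SD over libraries unless marked SE. Transcript-class shares are pooled expected counts, for genes with a mean of at least 50 unless said otherwise. Limits for a count of 0 use 3 counts and, like all count-based precision, cover counting error only. Rows naming no gene (0.401% to 1.04% of counts) stayed out of the tests.

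Members named are the 5 highest and 3 lowest per subunit, those not above 1 TPM, the stalk genes, the paralog pairs, Rpl5, Rpl11, Rpl13a, Rps3, Rps6 and Rps19, the 3 highest and lowest coding shares, and the 3 largest library ratios and largest and smallest table ratios. Some values that this rule selects are not reported here. Members and lists were chosen with earlier results of these data known. Other floors, pseudocounts, filters, scalings, tables and left-out replicates were tried.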

Additional observations from a re-analysis of the deposited data

How the results depend on the processing

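The count of members above 1 TPM lay between 72 and 80 with CPM, rescaled TPM, all genes tested, another pseudocount or filter, or the second table, and was 79 to 80 with 1 replicate left out. It was 65 at a floor of 5 TPM and 2 at 50 TPM, where all genes gave 7384 and 978. With the second transcript quantification 19620 of all genes passed 1 TPM, 57.1% of those tested, against 12220, or 50.5%, in the gene table. The members' median of 15.1 TPM became 22.0 TPM in the second table and 48.4 TPM when TPM was rescaled to protein-coding genes alone, and 14.3 to 16.1 TPM with 1 replicate left out. The median coding share of 34.3% was 41.1% in the second table and 31.5% to 35.1% with 1 replicate left out. The pseudogene share of 5.19% was 7.04% in the second table and 4.67% to 5.47% with 1 replicate left out. The log2 difference of Rpl36al and Rpl36a reversed to −2.24 in the second table; the cause was not tested. The large minus small median was −0.01 to 0.14 with 1 replicate left out and −0.01 with CPM. Under the alternatives 317 values of named genes kept their call and 5 lost it: Rpl14, Rpl22, Rpl29 and Rpl39 when genes with no TPM were also tested (adjusted p = 0.140, 0.108, 0.169 and 0.0574), and Rpl29 without replicate 2 (adjusted p = 0.0544). Of the paralog pairs' values 33 stayed within 1 SD, 14 moved farther and 1 reversed. Depth limits the lowest members, since Rps27l rests on a mean of 9.67 counts. RNA input differs by replicate and cannot be told apart from it. No paired analysis was possible because the 3 libraries form 1 group, with no second group to pair by replicate number; differences between genes were taken within each library.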
